A study of Mus musculus with 7 samples.

Results

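Shox2 binding sites listed in both embryonic limb and embryonic palate, at which no Pbx peak was listed in the limb, are described here. They were chosen by 3 deposited peak lists, all of stage E12.5 (E stands for the day of embryonic development). Each is a limb Shox2 peak that contains at least 1 position of the palate Shox2 list and shares no base with a limb Pbx peak. There were 1348 such sites among 33915 limb Shox2 peaks (3.97%, 95% Wilson interval 3.77 to 4.19%). The lists come from chromatin immunoprecipitation followed by sequencing (ChIP-seq), which recovers the DNA bound by a protein, and "without Pbx" means only that the Pbx list has no peak there.

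The groups were Shox2 in limb at E12.5, Shox2 in palate at E12.5 and Pbx in limb at E12.5. Both Shox2 groups carry an HA epitope tag on Shox2 and were precipitated with an antibody against HA. The Pbx group was precipitated with an antibody against Pbx proteins, and its genotype, the strain, and the number of embryos behind each library are not given in the labels. All tissue was freshly dissected. There was 1 library in each group, Pbx was profiled in limb only, and the other 4 of the 7 libraries in the series, among them the untagged control and the input, were not analysed here. The lists hold positions with no height, score or p-value, so depth is unknown and no value has a replicate error.

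Shox2 is a homeodomain transcription factor. In the mouse it is needed for the upper segment of the limb skeleton and for the front of the palate, both of which form from mesenchyme. Pbx proteins are homeodomain factors of the TALE class, which bind DNA alone or in complexes with Hox and other homeodomain proteins, and they take part in patterning the proximal limb. A site bound by Shox2 in both tissues and outside every limb Pbx peak is therefore a place where listed Shox2 binding recurs between tissues with no Pbx partner listed in the limb.

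The rule selects on 2 properties. Of all limb Shox2 peaks, 2129 (6.28%) held a palate position and 24916 (73.5%) met no Pbx peak. Among the 2129 peaks shared by both tissues, 1348 (63.3%, interval 61.2 to 65.3%) met no Pbx peak, against 23568 of 31786 limb-only peaks (74.1%, interval 73.7 to 74.6%). Sites without Pbx were thus the larger part of the shared peaks and a smaller share of them than of the limb-only peaks. These shares are given as a description, because they belong to the choice of sites, and the intervals cover counting error only and treat neighbouring peaks as independent. The co-occupancy list deposited for the series holds 8999 regions, which are the limb Shox2 peaks on Pbx that the rule leaves out, so by construction it has none of the 1348 sites (0).

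Few sites lay within 50 bp of the Pbx limit of the rule, and more lay within 20 bp of the palate limit. These distances are on unlike scales, so the counts do not rank the limits. Looser settings on either side gave similar numbers of sites. There were 1625 with Shox2 and Pbx limb peaks at 200 bp and 1594 with palate positions up to 100 bp outside. Toward Pbx, 4 sites had a gap of 1 to 50 bp to the nearest Pbx peak, and 4 shared peaks were left out for an overlap of 1 to 50 bp, the smallest being 32 bp. At the palate limit, 99 sites held their palate position within 20 bp of a peak edge. A further 72 limb peaks without Pbx had a palate position 1 to 20 bp beyond the edge and were not counted, and with positions 1 to 100 bp beyond the edge the number left out was 246.

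By the rule the palate position lies inside the limb peak, so its distance from the limb centre is bounded by the peak's width. It lay a median of 57.0 bp from the limb centre (quartiles 27.0 and 96.0 bp, 95% order-statistic interval of the median 53.0 to 61.5 bp), within 100 bp at 1037 sites (76.9%) and within 200 bp at 1285 (95.3%). It fell left of the centre (toward lower coordinates) at 685 sites (50.8%), with a median signed offset of -2.0 bp. Positions beyond the peak edges are left out by the rule, so these offsets do not show whether the lists are shifted against each other. At the 781 shared peaks with Pbx the median was 64.5 bp (quartiles 30.5 and 118 bp), in peaks that were also wider. Scaled to the peak, the positions lay a median of 35.6% of the way from centre to edge at the sites without Pbx and 36.2% at those with Pbx, where positions spread evenly over the peak would give 50%. The central 50% of the peak held the position at 885 sites without Pbx (65.7%) and at 515 with Pbx (65.9%), against 65.8% of all shared peaks.

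**Figure D1:**
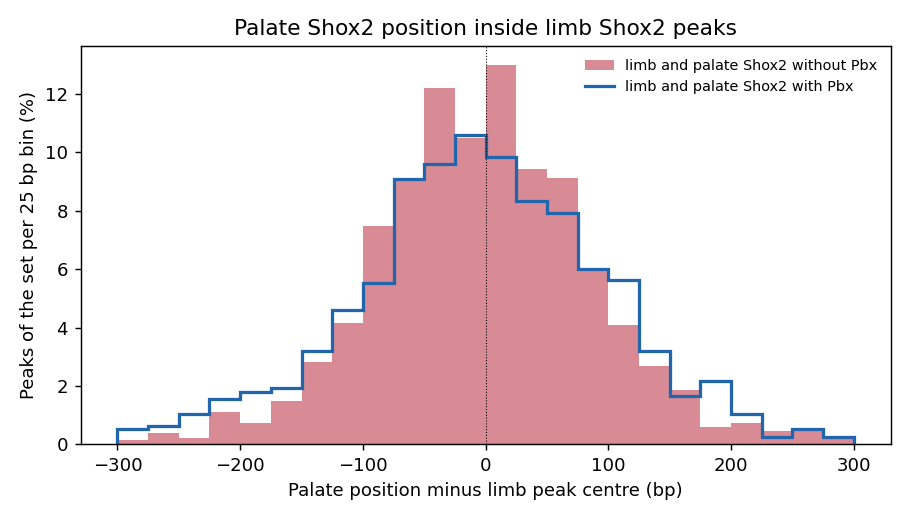
Place of the palate Shox2 position relative to the limb peak centre in bp (x axis), as the percent of peaks of each set per 25 bp bin (y axis), for shared peaks without Pbx (filled, 1348) and with Pbx (line, 781). Both sets are densest around the centre, and positions beyond 300 bp on either side are not drawn.

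Width set how far the position could lie from the centre. In sites narrower than 250 bp the median distance was 38.0 bp (449 sites). It was 55.0 bp in the 498 sites of 250 to 400 bp and 94.0 bp in the 401 wider ones. As a share of the way from centre to edge these medians were 37.0, 35.2 and 34.3%. Across the 1348 sites the rank correlation of distance with width was 0.42 (Spearman's rho, a description across sites), while that with place in the palate list was 0.08.

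The sites without Pbx were wider at the median than the limb Shox2 list as a whole. Their median width was 309 bp (quartiles 225 and 438 bp, range 170 to 1414 bp), against 261 bp for the whole limb list. The median was 383 bp for shared peaks with Pbx, 321 bp for limb-only peaks with Pbx and 242 bp for limb-only peaks without Pbx. A wider peak is more likely both to contain a position and to touch Pbx, so width is tied to the rule, and its part in the other values was not tested. The widest site was chr1:100070569-100071982 (mm9, 1414 bp), followed by chr13:15668466-15669776 (1311 bp), chr14:110477044-110478342 (1299 bp), chr3:66377634-66378876 (1243 bp) and chr12:98441347-98442583 (1237 bp). Of these, the site on chromosome 14 held its palate position 6.0 bp from its centre, and those on chromosomes 13, 3 and 12 held theirs 414, 321 and 370 bp to the right.

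In file order, which may be a ranking but is not stated to be one, the sites stood high in both Shox2 lists. The median line was 12144 of 33915 in the limb list (35.8% of the way down) and 4736 of 15091 in the palate list (31.4%). Shared peaks with Pbx stood higher in both, at 19.4% and 25.4%. In the limb list, limb-only peaks with Pbx had a median place of 35.1%, near that of the sites. Limb-only peaks without Pbx had a median place of 55.9%. The sites made up 5.99% of the first decile of the limb list and 2.18 to 2.98% of the last 2 deciles, and 18.4% of the first and 3.71% of the last decile of the palate list.

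The share without Pbx was lowest at the top of the limb list in shared and limb-only peaks alike. In the first decile, 43.8% of shared peaks met no Pbx peak, against 44.2% of limb-only peaks. The last decile gave 79.5% of shared against 82.1% of limb-only peaks, and in each of the 10 deciles the shared peaks were without Pbx less often than the limb-only ones. The widest difference was in the eighth decile, with 69.2% against 82.8%. With every limb Shox2 and Pbx peak set to 200 bp around its centre for the Pbx overlap, the shared share was lower in 9 of 10 deciles, and the exception was the sixth (89.0% against 88.7%). Which peaks were shared was still decided at the deposited widths, so selection by width remains in both sets. These differences were not tested. Down the palate list the share of shared peaks without Pbx started at 57.0% in decile 1 and lay between 62.3 and 70.5% in the other 9.

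**Figure D2:**
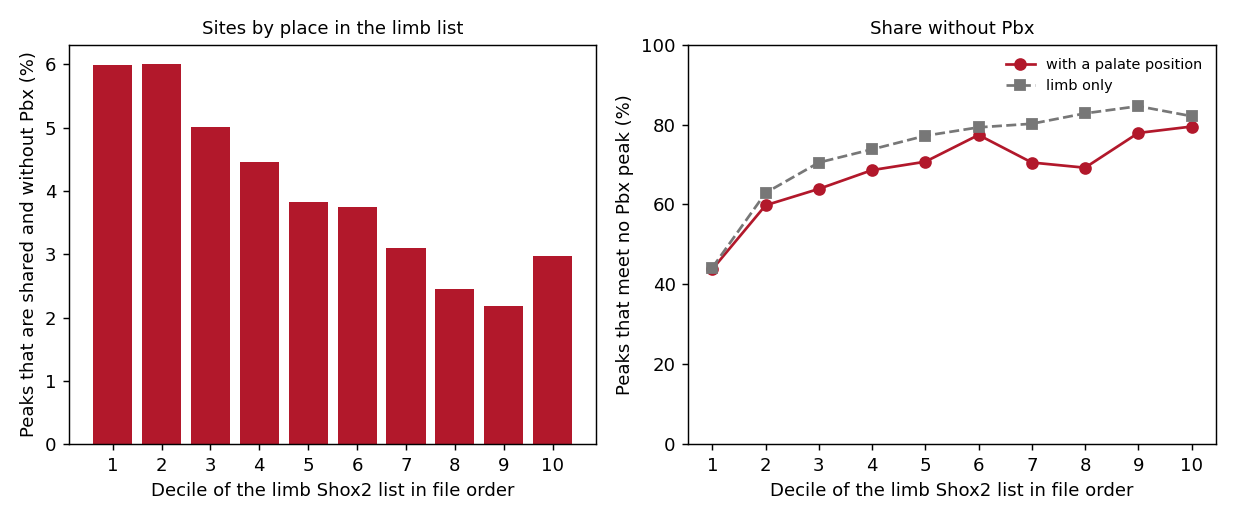
Left, percent of limb Shox2 peaks in each decile of the limb list that are shared with palate and without Pbx. Right, percent of peaks in each decile that meet no Pbx peak, for peaks with a palate position (circles) and limb-only peaks (squares). The left bars are highest in deciles 1 and 2 (5.99 and 6.01%) and lowest in decile 9 (2.18%), with 2.98% in the last. The circles lie below the squares throughout.

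Places in the limb and palate lists were only weakly related. Over the 1348 sites, limb line and palate line had a rank correlation of 0.12 (Spearman's rho, across sites), and over the 781 shared peaks with Pbx it was 0.07. In the first 50% of both lists stood 589 sites (43.7%). A further 324 were in the last 50% of the limb list and the first 50% of the palate list, 269 the other way round, and 166 (12.3%) in the last 50% of both. The first line of the palate list was one of the sites, chr8:95142149-95142433, a peak of 285 bp that stood at line 22676 of the limb list (66.9%). The highest in the limb list, chr14:117807411-117807975 at line 93, held a palate position from line 7298 (48.4%). These 2 sites were picked after their values were seen, and each led the sites in one list and stood lower in the other.

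**Figure D3:**
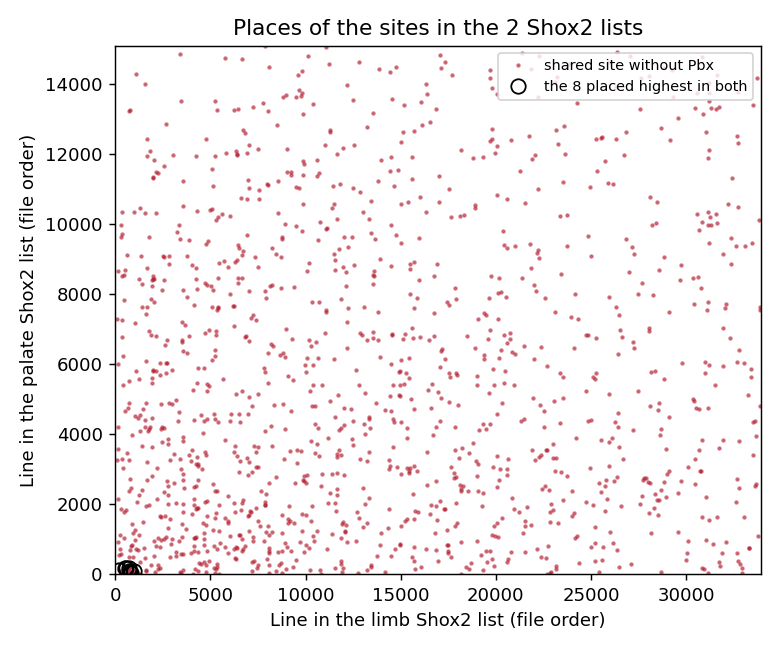
Line in the limb Shox2 list (x axis) against line in the palate Shox2 list (y axis), in file order, for each of the 1348 sites; circles mark the 8 with the lowest summed place. Sites fill the whole field and are denser toward the first lines of both lists, where 54 (4.01%) are in the first 10% of both.

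The 8 sites with the lowest summed place in both lists were all within the first 2.96% of the limb list and the first 1.17% of the palate list. At the top was chr10:36754997-36755562, at line 174 in limb and line 119 in palate. It is 566 bp wide, its palate position lies 73.5 bp left of the centre, the nearest Pbx peak is 234185 bp away, and no Pbx peak is centred within 50 kb. Next came chr1:165059535-165060086, with line 832 in limb and line 24 in palate, a palate position 38.5 bp left of centre and 60463 bp to the nearest Pbx peak. Also without a Pbx peak centred within 50 kb was chr10:98822240-98822761, at limb line 786 and palate line 50, with a gap of 59524 bp. The other 5 lay nearer to Pbx. The gap was 31833 bp at chr12:58177596-58178109, 23101 bp at chr4:88149679-88150064 and 9820 bp at chr19:15044672-15045493. It was 5165 bp at chr15:51327611-51328471 and 2884 bp at chr1:83864208-83864612. Their palate positions lay 19.0 to 53.0 bp from the limb centre except on chromosome 19, where it was 209.5 bp. In these 8 leading sites the palate position was within 80.5 bp of the limb centre in all but 1, while the gap to Pbx ran from 2884 to 234185 bp. The limit of 80.5 bp was read from these sites, and 76.9% of all 1348 sites had the position within 100 bp.

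A second position of the palate list fell in 9 sites, and 1339 held 1 position. The same count for shared peaks with Pbx is not given here. For the 9 sites, the palate line and offset used elsewhere are those of the position listed earlier. The pairs were 231 bp apart at chr10:105151421-105152073, the shortest spacing, and 768 bp apart at chr1:100070569-100071982, the longest. The site on chromosome 1 is also the widest of all, and its positions stand at lines 197 and 12640 of the palate list. At chr14:24313111-24314027 both positions stood high, at lines 181 and 353, and were 548 bp apart. At chr4:14200705-14201937 they stood at lines 1659 and 1878, 701 bp apart. The others were chr18:83712734-83713887, chr17:85774450-85775108, chr2:57701618-57702168, chr16:51759229-51759834 and chr9:33690291-33690843, with spacings of 250 to 738 bp. In these peaks 1 limb interval covers 2 separate palate positions.

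Most sites had Pbx in the wider neighbourhood. The gap to the nearest Pbx peak had a median of 19258 bp (quartiles 6961 and 49445 bp), against 26050 bp (8668 and 69460 bp) for limb-only Shox2 peaks without Pbx. Within 1 kb of Pbx lay 60 sites (4.45%, against 4.57% of all 24916 limb Shox2 peaks without Pbx). Within 5 kb lay 249 (18.5%, against 16.9%) and within 10 kb 449 (33.3%, against 28.1%). The 1011 of 1348 sites within 50 kb were a larger share than the 67.3% of all limb Shox2 peaks without Pbx. At 100 kb the count was 1197 (88.8%, against 83.2%). Up to 1 kb the sites' shares were near the background, with 7 sites within 100 bp (0.519%, against 0.606%) and 29 within 500 bp (2.15%, against 2.69%). Beyond 5 kb they were above it. The median gap was shorter than that of limb-only peaks without Pbx in each of the 10 deciles of the limb list, for instance 24085 against 25024 bp in the first and 16121 against 23605 bp in the last. Gap and place were nearly unrelated within the sites (rho -0.05 with limb line, 0.06 with palate line, across 1348 sites). Whether the shorter gap goes with regions dense in peaks of every kind was not tested.

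**Figure D4:**
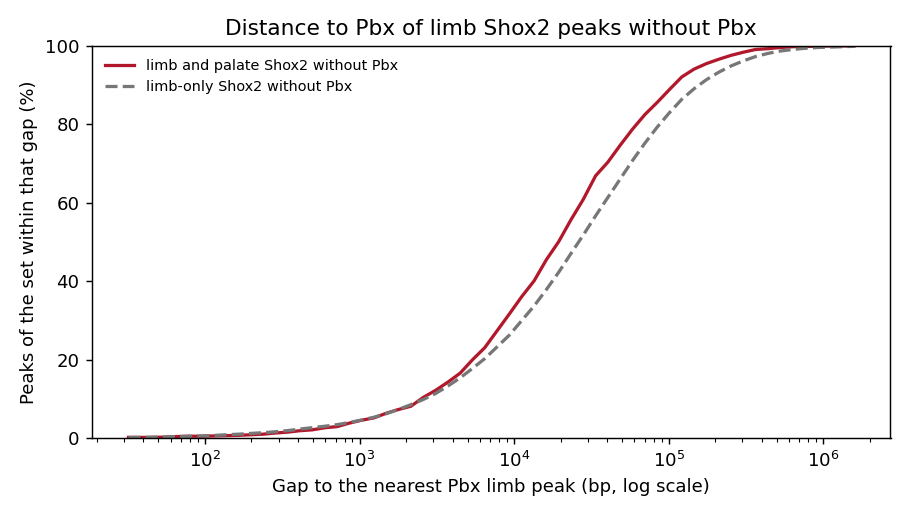
Percent of peaks (y axis) within a given gap to the nearest Pbx limb peak (x axis, bp, log scale), for shared Shox2 sites without Pbx (solid, 1348) and limb-only Shox2 peaks without Pbx (dashed, 23568). The curves run close together up to 2149 bp, where the solid one is slightly lower (8.16% against 8.56%). From 2581 bp on (10.4% against 9.87%) the solid one lies above, with 33.3% against 27.8% within 10 kb and 88.8% against 82.8% within 100 kb.

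At the near end, chr10:104235981-104236538 ended 18 bp from a Pbx peak, chr4:101379938-101380107 lay 23 bp away, chr9:62498171-62499011 29 bp, chr16:90041319-90041497 47 bp and chr1:77224371-77224570 62 bp. These 5 are without Pbx only by the borders of the listed peaks. At the far end, 151 sites (11.2%) lay over 100 kb from Pbx, against 17.2% of limb-only peaks without Pbx. Over 500 kb away lay 7 of the 1348 sites, against 351 of the 23568 limb-only peaks without Pbx, a smaller share. The farthest was chr6:75749725-75749979, at 1011456 bp, and chr6:76064365-76064534, which faces the same Pbx peak, lay at 696901 bp. They were followed by chr8:16460721-16460918 at 692592 bp, chr3:76231480-76232027 at 622086 bp and chr5:18664080-18664363 at 567664 bp.

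The neighbourhoods of the sites also held further Shox2 binding. Within 50 kb of the centre there were on average 3.20 other limb Shox2 peaks, against 3.39 around shared peaks with Pbx and 2.89 around limb-only peaks without Pbx. Limb-only peaks with Pbx had the highest mean (3.52), and the sites were near the whole limb list (3.07). Other palate Shox2 positions numbered 1.32 on average, against 1.55 around shared peaks with Pbx, 1.1 around limb-only peaks with Pbx and 0.847 around limb-only peaks without Pbx. Pbx peaks numbered 2.04, against 3.96 around shared peaks with Pbx, which count their own, and 1.64 around limb-only peaks without Pbx. The nearest other limb Shox2 centre was within 10 kb at 665 sites (49.3%, against 48.2% of the whole limb list). No other limb Shox2 peak was centred within 50 kb at 205 sites (15.2%, against 16.9% of the whole limb list), a share near that of the list. It was 14.5% for shared peaks with Pbx and 13.3% for limb-only peaks with Pbx. No other palate position lay within 50 kb at 496 sites (36.8%, against 50.5% of the whole limb list). That share was 32.4% for shared peaks with Pbx and 44.7% for limb-only peaks with Pbx. No Pbx peak was centred within 50 kb at 337 of the 1348 sites, a smaller share than the 33.5% of limb-only peaks without Pbx. The sites' share was near the 24.2% of the whole limb list. That list is not a like comparison, because each of its peaks with Pbx had a Pbx peak centred within 50 kb.

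Most sites stood singly, although nearer to one another than limb Shox2 peaks as a whole stood to them. Shared peaks with Pbx stood about as near to the sites, so the nearness was not particular to the sites. The nearest other site had a median distance of 316306 bp, against 320422 bp for shared peaks with Pbx and 449596 bp for the whole limb list. Another site lay within 100 kb of 348 sites (25.8%, against 26.4% of shared peaks with Pbx and 19.4% of the whole limb list). Within 10 kb one lay at 58 sites (4.30%, against 4.23% and 3.05%). These differences were not tested. The 58 formed 26 pairs and 2 runs of 3. One run was on chromosome 7, at chr7:38122295-38122635, chr7:38123134-38123427 and chr7:38131249-38131425, with Pbx gaps of 4619, 3827 and 2543 bp and 11 to 12 Pbx peaks within 50 kb. The other was on chromosome 1, at chr1:164064883-164065380, chr1:164073426-164073773 and chr1:164083225-164083627, with gaps of 30466, 39009 and 32045 bp. The nearest shared peak with Pbx was a median of 681484 bp from a site, against 947732 bp for the whole limb list. For shared peaks with Pbx the nearest other one was at 564134 bp, and for limb-only peaks with Pbx it was at 733568 bp. Within 10 kb, 33 sites (2.45%) had one, near the 2.17% of the whole limb list. That share was 4.1% for shared peaks with Pbx and 3.8% for limb-only peaks with Pbx, so this nearness was not particular to the sites.

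Counted in windows of 1 Mb, 871 of the 2435 windows with a limb Shox2 peak held at least 1 site and 559 of these held exactly 1. The fullest window, chromosome 2 from 51 to 52 Mb, held 8 sites among 48 limb Shox2 peaks (16.7%), beside 22 palate positions and 18 Pbx peaks. No shared peak with Pbx (0) was in it. Its 8 sites ran from chr2:51075186-51075965 to chr2:51703104-51703291, over 628 kb, with Pbx gaps of 0.523 to 45.4 kb. Of the palate positions in them, those at lines 387, 726 and 1658 stood high in the palate list and those at lines 14071 and 14468 near its end.

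The window on chromosome 3 from 66 to 67 Mb came next, with 7 sites among 93 limb Shox2 peaks (7.53%), 2 shared peaks with Pbx and 33 Pbx peaks. By general knowledge of the mm9 map, not from the deposited files, this window holds Shox2 itself. The 7 sites lay between chr3:66377634-66378876 and chr3:66668306-66668574, a span of 291 kb. Their gaps to Pbx were all moderate, 6.21 to 16.8 kb. The best placed in the palate list, chr3:66466347-66466692 at palate line 841 and limb line 4642, and its neighbour chr3:66467887-66468140, at palate line 7198 and limb line 12159, were centred 1.49 kb apart.

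On chromosome 1 from 165 to 166 Mb there were 6 sites among 79 limb Shox2 peaks (7.59%), with 2 shared peaks with Pbx. By the same general knowledge this window holds Prrx1, a homeobox gene active in limb and facial mesenchyme. Genes in the other full windows were not looked up, so these names do not show which genes the sites lie near. The 6 sites include chr1:165059535-165060086, the second of the sites leading both lists, and 2.93 kb from it chr1:165056620-165057143. The site chr1:165540023-165541075 was 1053 bp wide and stood at palate line 302, with its position 285 bp left of centre. A close pair, chr1:165587821-165588125 and chr1:165588272-165588664, had centres 0.495 kb apart, the closest pair of sites in the genome.

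The other windows among the fullest 10 held 5 or 6 sites each. Chromosome 4 from 13 to 14 Mb held 6 among 68 limb Shox2 peaks, and 4 shared peaks with Pbx. One of the 6, chr4:13770669-13771875, was 1207 bp wide and stood at limb line 753 and palate line 705. Chromosome 14 from 24 to 25 Mb had 6 sites among only 28 limb Shox2 peaks (21.4%) and 23 palate positions, the largest share of these windows. The window at 147 Mb of chromosome 3 held 6 of 57 limb Shox2 peaks and that at 139 Mb of chromosome 1 held 6 of 48. Of the 9 windows with 5 sites, the 3 whose first site came earliest in the limb list were at 4 Mb of chromosome 5 (33 limb Shox2 peaks), at 78 Mb of chromosome 16 (39) and at 75 Mb of chromosome 4 (41). Windows were picked by their number of sites, so a high share in them is a consequence of the choice.

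By chromosome, the sites were 3.22 to 5.45% of limb Shox2 peaks on the autosomes other than chromosome 19, against 3.97% in the whole list. Chromosome 7 had the highest share (63 of 1156 peaks, 5.45%), followed by chromosome 18 (79 of 1567, 5.04%). Chromosome 19 (20 of 809, 2.47%) and X (16 of 705, 2.27%) had the lowest. These 2 low shares came about differently. On X few limb peaks held a palate position, 19 in all, and 16 of the 19 were without Pbx (84.2%), whereas on chromosome 19 only 20 of 44 shared peaks were without Pbx (45.5%). The palate list had 128 positions on X and the Pbx list 389 peaks, and the median gap of the sites to Pbx was 35660 bp there, against 13690 bp on chromosome 19. Differences between chromosomes were not tested.

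**Figure D5:**
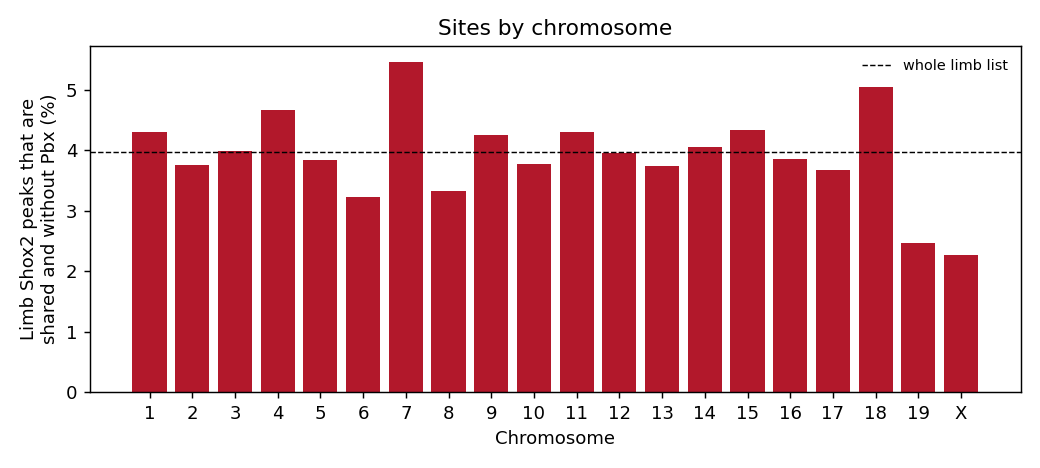
Percent of limb Shox2 peaks on each chromosome that are shared with palate and without Pbx (bars, y axis from 0). The dashed line is the whole limb list at 3.97%; chromosomes 7 and 18 stand above the other bars and chromosomes 19 and X below.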

How the data were processed

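ChIP-seq peak lists of 3 libraries (Shox2 limb, Shox2 palate and Pbx limb, E12.5) were used. Bowtie, MACS2 and mouse build mm9 are named per the submitters' processing notes; the labels give neither versions nor the settings and cutoffs of peak calling. The deposited lists hold sequence name, start and end only, in bp, so depth is unknown. The palate list has positions of 1 bp. The Pbx list holds 33915 peaks, the same number as the limb Shox2 list, with a median width of 897 bp against 261 bp. Unplaced sequences in the palate (2) and Pbx (70) lists carry mm9-style names. Motifs and nearby genes were not searched, since a genome of build mm9 was not used here.

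A palate position counted when inside the limb peak, and Pbx when at least 1 bp was shared. With 1 library a group, no test was made and values are descriptions. Wilson and order-statistic intervals (95%) cover counting error only. Gaps are bases between peak borders and other distances run between centres. Regions named were, by rule, the 8 placed highest in both Shox2 lists, the 5 widest, those with 2 palate positions, the 5 nearest to and farthest from Pbx and the 10 fullest 1 Mb windows. The first lines of each list, the runs of 3, and sites inside windows were added after their values were seen. Sites and rules were chosen with earlier results of these data known. Coordinates are 1-based. Python 3.11.15, NumPy 2.4.6, pandas 2.3.3, SciPy 1.17.1 and matplotlib 3.10.9 were used, and the interval code was tested on simulated data.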

Additional observations from a re-analysis of the deposited data

How the results depend on the processing

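The number of sites, the share of shared peaks without Pbx and the distance of the palate position from the limb centre were recomputed under 8 alternatives. The number stayed between 1038 and 1625 except with the first 50% of all 3 lists, which gave 710 because fewer peaks entered. The share, 63.3% as reported, was 76.3% with Shox2 and Pbx limb peaks at 200 bp and 73.2% with the first 50% of the Pbx list, both of which leave less Pbx to meet by construction. It was 66.4% with palate positions within 100 bp of the centre and 68.9% with the first 50% of all lists. The latter also cuts the Pbx list, so it does not describe higher-placed Shox2 peaks alone. The median distance, 57.0 bp as reported, was 68.2 bp when positions up to 100 bp outside counted and 41.5 bp when only those within 100 bp of the centre did, which follows from those limits. No other alternative moved the share or the distance beyond its interval. No paired analysis was possible because there is only 1 library per group. Motif searches in another window were not run. Peak lists without heights cannot tell an unbound site from one under the cutoff.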
